A study of Mus musculus with 8 samples.

Results

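Glycosyltransferases build sugar chains on proteins and lipids by moving 1 sugar at a time from a nucleotide donor in the Golgi. The genes described here were the ones whose array name begins with Galnt, Gcnt, B3gnt, B4galt, B3galt, Fut, St3gal, St6gal or St8sia, without St8sia3. These names covered 67 genes and 119 of the 41174 distinct probes of the array. Genes were taken by name alone, so Fut4-ps1, by its name a pseudogene, is counted. A probe was kept if the scanning software called it well above background on 4 or more arrays out of 8, and 99 probes of 63 genes were. Each of the 63 genes was read from its brightest kept probe, and 60 of these probes were well above background on all 8 arrays.

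Mucin-type O-glycans start when a GALNT enzyme places N-acetylgalactosamine on a serine or threonine. C1GALT1, which needs its chaperone C1GALT1C1, then adds galactose to give core 1, and GCNT enzymes branch it. B3GNT, B4GALT and B3GALT enzymes lengthen the branches, FUT enzymes add fucose, and ST3GAL, ST6GAL, ST6GALNAC and ST8SIA enzymes cap chains with sialic acid. Many of these enzymes also act on N-glycans or on glycolipids. In the pancreas, mucins of the duct surface and secreted acinar proteins carry such chains, and polysialic acid on NCAM1 is known from rat beta cells.

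Whole pancreas was taken from C57BL/6 pups aged 1 week that were Glis3KO2 (4 samples) or WT (4 samples), and all pups stayed with their own mother. Glis3KO2 is named in the labels as a knockout of Glis3, a zinc finger transcription factor of pancreatic endocrine and duct cells, and the labels do not give the deleted part. The question in the study's title is the part of Glis3 in pancreatic beta cells. Total RNA, 500 ng per sample, was labelled with Cy3 and hybridised to single-colour Agilent arrays, 1 array per sample.

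On each array 31353 to 35613 probes were well above background. The probe for Glis3 was well above background on 0 Glis3KO2 and 3 WT arrays, at a mean log2 signal of -6.15 ± 0.21 in Glis3KO2 and -5.58 ± 0.33 in WT (SD, n = 4 each), too dim to enter the test. Whether it lies in the deleted part is not known, so it does not check the labels. Glis3KO2 arrays shared 1 slide and WT arrays shared the other. An effect of slide cannot be told apart from genotype in the differences below. Xist, a transcript of female cells, was high on 3 Glis3KO2 arrays and 1 WT array. On the first principal component, with 26.5% of the variance, Glis3KO2 arrays lay at 0.46, -13.0, 39.8 and 59.0 and WT arrays between -26.0 and -15.4. All markers of acinar (7), duct (8), beta (9) and other islet cells (7) with a probe on the array entered the test. Litters are not recorded in the labels, and p-values therefore reflect only how far these 8 samples spread.

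Galnt14, B3galt5 and St3gal5 were lower in Glis3KO2 pancreas, and none of the 63 tested genes passed the test as higher. Galnt14, a starter of O-glycans, fell most, by 3.77-fold. B3galt5, which adds galactose in beta-1,3 linkage to chain ends, fell 2.31-fold, and St3gal5, the synthase of the ganglioside GM3, fell 1.68-fold. In whole tissue, fewer cells of a type and less RNA per cell cannot be told apart. The other 60 genes did not pass the test, among them the widely used Galnt1, Galnt2, B4galt1, St6gal1 and St3gal1. Genotypes were compared with limma on log2 signal scaled by subtracting the 75th percentile of its array, at a Benjamini-Hochberg adjusted p of 0.05 over all 33239 tested probes. In that fit 0.256% of tested probes passed, 0.174% lower and 0.0812% higher. With the brightest probe of each of 22701 gene names the share was 0.3%, with 0.211% lower and 0.0881% higher, and for the 63 glycosyltransferases it was 4.76%, all 3 of them lower. At an unadjusted limma p under 0.05, 1 of the 63 was higher (1.59%), St8sia2, and 3 were lower (4.76%), against 3.39% higher and 5.74% lower over the 22701 gene names.

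Galnt14 had log2 signals of -2.06, -2.47, -2.71 and -2.70 on the 4 Glis3KO2 arrays, against -0.63, -1.003, -0.36 and -0.30 on the 4 WT arrays. The groups did not overlap, and the highest Glis3KO2 array, replicate 1, lay about 1 log2 unit below the lowest WT array, replicate 2. The means were -2.49 ± 0.30 in Glis3KO2 and -0.57 ± 0.32 in WT (SD, n = 4 each), a log2 difference of -1.91 (SE 0.20, 95% interval -2.36 to -1.47, limma adjusted p = 0.00590). This probe (A_51_P337230) lies at 71782151 to 71782210 of chromosome 17, minus strand, in mouse build mm7 as the array files give it. A dimmer Galnt14 probe (A_52_P104738, 71795974 to 71796033), which the array assigns to another transcript record, averaged -5.36 ± 0.66 in Glis3KO2 and -4.97 ± 0.33 in WT. Its log2 difference of -0.39 (SE 0.31, limma adjusted p = 0.767) had the same sign and did not pass, and the groups overlapped. With both probes averaged Galnt14 had a log2 difference of -1.15 (limma adjusted p = 0.103). With the brighter probe Galnt14 stayed past the threshold without any 1 of the 8 arrays. The call was lost (log2 difference -1.70, limma adjusted p = 0.104) without Glis3KO2 replicates 3 and 4 together. These arrays lay farthest from the others on the first principal component. A block for replicate number lost the call too.

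B3galt5 had log2 signals of -2.21, -2.76, -2.599 and -2.82 on Glis3KO2 arrays, against -1.58, -1.71, -1.17 and -1.09 on WT arrays. All Glis3KO2 arrays were below all WT arrays. The means were -2.595 ± 0.27 in Glis3KO2 and -1.39 ± 0.30 in WT (SD, n = 4 each), a log2 difference of -1.21 (SE 0.19, 95% interval -1.63 to -0.79, limma adjusted p = 0.0458). The single probe of the gene (A_51_P301435) lies at 96700402 to 96700461 of chromosome 16, plus strand (mm7). In human tissue this enzyme makes type 1 chains, the backbone of Lewis a antigens, and in mouse it is known for stage-specific embryonic antigens on glycolipids. The call was close to the threshold and was lost without any 1 array but Glis3KO2 replicate 1, with adjusted p between 0.0600 and 0.183. It was also lost with Xist as covariate (limma adjusted p = 0.116), with no filter on dim probes (0.0861) and without Glis3KO2 replicates 3 and 4 together (0.328). A block for replicate number lost the call too.

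St3gal5 had log2 signals of 1.69, 1.46, 1.52 and 1.51 on Glis3KO2 arrays, against 2.33, 2.06, 2.43 and 2.33 on WT arrays. The groups did not overlap, and the Glis3KO2 arrays lay close together. The means were 1.54 ± 0.10 in Glis3KO2 and 2.29 ± 0.16 in WT (SD, n = 4 each), a log2 difference of -0.74 (SE 0.11, 95% interval -0.996 to -0.49, limma adjusted p = 0.0426). Its single probe (A_51_P483473) lies at 72172341 to 72172400 of chromosome 6, plus strand (mm7). GM3, the product of St3gal5, is the first ganglioside from which most others are built. The call was lost without any 1 of Glis3KO2 replicates 2, 3 and 4 or WT replicates 1, 3 and 4, with adjusted p between 0.102 and 0.176. It was also lost with Xist as covariate (limma adjusted p = 0.190), with no filter on dim probes (0.0808) and without Glis3KO2 replicates 3 and 4 together (0.298). A block for replicate number lost the call too.

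**Figure D1:**
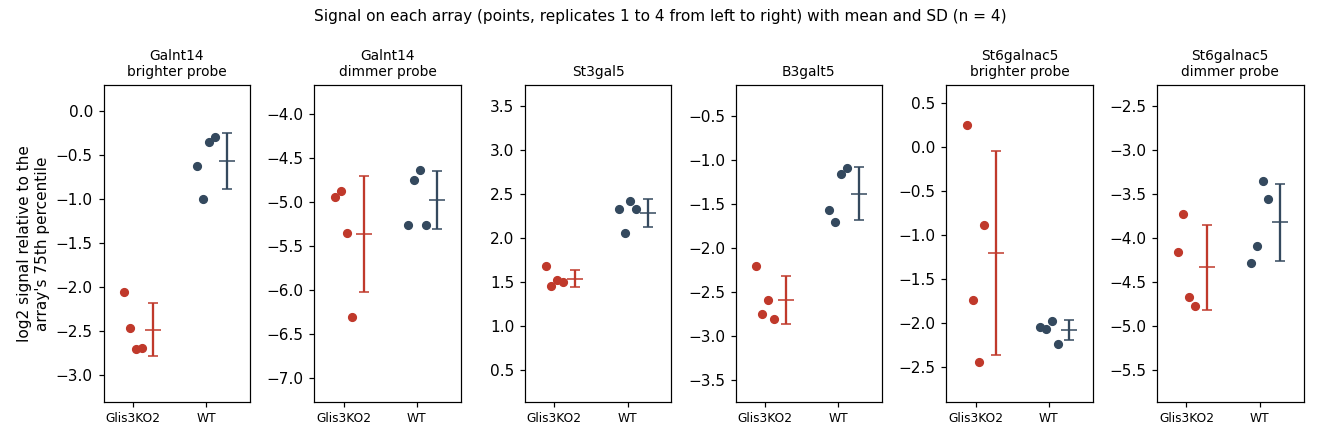
Scaled log2 signal (vertical axis, 0 at the array's 75th percentile) on each Glis3KO2 array (red, left) and WT array (dark, right), with mean and SD (n = 4), for Galnt14, St3gal5, B3galt5 and St6galnac5. The brighter Galnt14 probe, St3gal5 and B3galt5 have no overlap between genotypes, while the dimmer Galnt14 probe and both St6galnac5 probes overlap; each panel spans the same number of log2 units around its own centre.

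In all 3 genes, Glis3KO2 replicate 1 was the highest Glis3KO2 array and WT replicate 2 the lowest WT array. The same held for Ins2, one of the mouse insulin genes, with log2 signals of 5.83, 5.31, 5.26 and 4.67 on Glis3KO2 arrays, against 9.02, 8.77, 9.01 and 9.07 on WT arrays. Slc2a2, which carries glucose into mouse beta cells, was instead lowest on Glis3KO2 replicate 1, with -2.85, -2.25, -2.12 and -2.59 on Glis3KO2 arrays, against -0.26, -0.55, 0.20 and -0.18 on WT arrays. These 2 markers were chosen after their values were seen. Of 9 beta cell markers 6 fell, where 0.211% of all gene names were lower at the same adjusted p. Iapp, Mafa and Pdx1 did not pass, with log2 differences of 0.45, -0.75 and -0.06, so Iapp lay in the other direction. Glis3KO2 replicate 1 was the highest Glis3KO2 array for 5 of the 6 that fell, all but Slc2a2. WT replicate 2 was the lowest WT array for 5 of the 6. Of all genes, 20.5% were highest of the 8 arrays on Glis3KO2 replicate 1, the largest such share of any array. WT replicate 2 was the lowest of the 8 for 7.66%. Shares of all genes by order within a genotype were not counted. The summed signal of the 9 beta cell markers, in multiples of each array's 75th percentile, was 192 to 396 in Glis3KO2 and 733 to 903 in WT. Sums of unlogged signals weigh bright genes most, and this one rests mainly on Ins2, Ins1 and Iapp. Their mean log2 signals were 5.27, 5.07 and 7.27 in Glis3KO2, against 8.97, 7.61 and 6.82 in WT, so Iapp was not lower. Of 7 markers of other islet cells 2 fell, the hormone Ppy and the factor Irx2, with summed signals of 128 to 204 in Glis3KO2 and 214 to 240 in WT. Neither call held with Xist as covariate or without Glis3KO2 replicates 3 and 4 together. Over all tested probes, 15 and 6 were lower under these settings, against 58 as reported. The beta cell marker calls under them are not given here. The part of the lower beta and other islet marker signals in the lower Galnt14, B3galt5 and St3gal5 signals was not tested. No marker of acinar (7 tested), duct (8), endothelial (8), leukocyte (8), nerve and glial (7), mesenchymal (8) or gut mucous cells (5) passed the test in limma, and at an unadjusted p under 0.05 there were 2 endothelial markers, 1 duct and 1 nerve marker lower and 1 mesenchymal marker higher, where 5.74% of all gene names were lower and 3.39% higher. Summed signals overlapped between genotypes for all of these but the endothelial list, at 24.5 to 29.6 in Glis3KO2 and 31.1 to 36.0 in WT.

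The 250 bases before the annotated start of each of the 3 lower genes are shown, because these genes moved the same way and Glis3 is a DNA-binding factor. Sequences are from RefSeq, build GRCm38.p6, and run 5′ to 3′ on the gene's own strand. Capitals mark the GC box GGGCGG or its complement CCGCCC, the letters that Sp1 family factors bind. The Galnt14 window is chr17:73710452-73710701 (minus strand), that of St3gal5 is chr6:72097358-72097607 (plus strand), and B3galt5 has 3 annotated starts with windows chr16:96235551-96235800, chr16:96273263-96273512 and chr16:96280782-96281031 (plus strand).
Galnt14: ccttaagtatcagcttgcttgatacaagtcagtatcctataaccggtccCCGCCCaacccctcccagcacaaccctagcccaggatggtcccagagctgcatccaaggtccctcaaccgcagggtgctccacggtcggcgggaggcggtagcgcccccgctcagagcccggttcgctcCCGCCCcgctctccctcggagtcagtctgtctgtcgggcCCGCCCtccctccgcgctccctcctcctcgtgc
St3gal5: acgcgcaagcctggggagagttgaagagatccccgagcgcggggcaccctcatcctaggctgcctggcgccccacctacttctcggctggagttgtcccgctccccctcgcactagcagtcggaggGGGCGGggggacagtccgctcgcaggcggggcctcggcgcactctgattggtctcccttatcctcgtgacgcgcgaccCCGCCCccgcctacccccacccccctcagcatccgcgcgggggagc
B3galt5 start 1: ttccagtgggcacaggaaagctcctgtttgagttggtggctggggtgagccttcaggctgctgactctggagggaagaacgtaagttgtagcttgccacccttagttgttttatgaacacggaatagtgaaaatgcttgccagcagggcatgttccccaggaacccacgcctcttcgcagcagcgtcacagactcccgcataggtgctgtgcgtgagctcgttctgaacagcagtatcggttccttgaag
B3galt5 start 2: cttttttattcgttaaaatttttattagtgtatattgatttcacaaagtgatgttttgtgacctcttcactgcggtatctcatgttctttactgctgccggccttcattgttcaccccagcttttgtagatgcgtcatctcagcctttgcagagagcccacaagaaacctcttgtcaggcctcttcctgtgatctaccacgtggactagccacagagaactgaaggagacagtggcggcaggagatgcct
B3galt5 start 3: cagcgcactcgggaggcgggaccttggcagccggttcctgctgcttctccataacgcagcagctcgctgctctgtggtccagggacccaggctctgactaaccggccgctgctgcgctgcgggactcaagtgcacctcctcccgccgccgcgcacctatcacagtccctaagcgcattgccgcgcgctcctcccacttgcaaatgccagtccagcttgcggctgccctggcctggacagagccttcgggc
Galnt14 holds 3 GC boxes and St3gal5 holds 2, and the B3galt5 windows hold 0. Of 32851 mouse windows of this length, 32.7% hold at least 1 GC box on either strand. The Galnt14 window is 66.4% G or C with 19 CpG dinucleotides, and the St3gal5 window is 71.6% with 25. The B3galt5 windows are 54%, 45.2% and 67.2% with 9, 6 and 20 CpG, in order of start. Over all windows the medians are 52.4% and 6 CpG. The letters TGGGGGGT, taken from the core of the Glis binding site, and GACCACCCA, the Gli site, were searched on both strands and are in none of these 5 windows. They are in 1.36% and 0.225% of all windows, and a site elsewhere or with other letters was not searched for.

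Most of the 63 genes lay close to 0. Log2 differences between Glis3KO2 and WT were above 0 in 33 genes and below 0 in 30, with a median of 0.0072, against a median of -0.0038 over the brightest probes of all gene names. The 95% interval of the difference lay within 2-fold either way for 57 of the 63 genes and within 1.5-fold for 41. Signals of the 2 genotypes did not overlap for 3 genes, the 3 that fell, and for 5.32% of all gene names (3.32% lower in Glis3KO2). The SD over replicates was larger in Glis3KO2 than in WT for 33 of the 63 genes (52.4%), against 65.8% of all tested probes. The probes shown differ in binding, so signals of different genes are not set against each other.

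**Figure D2:**
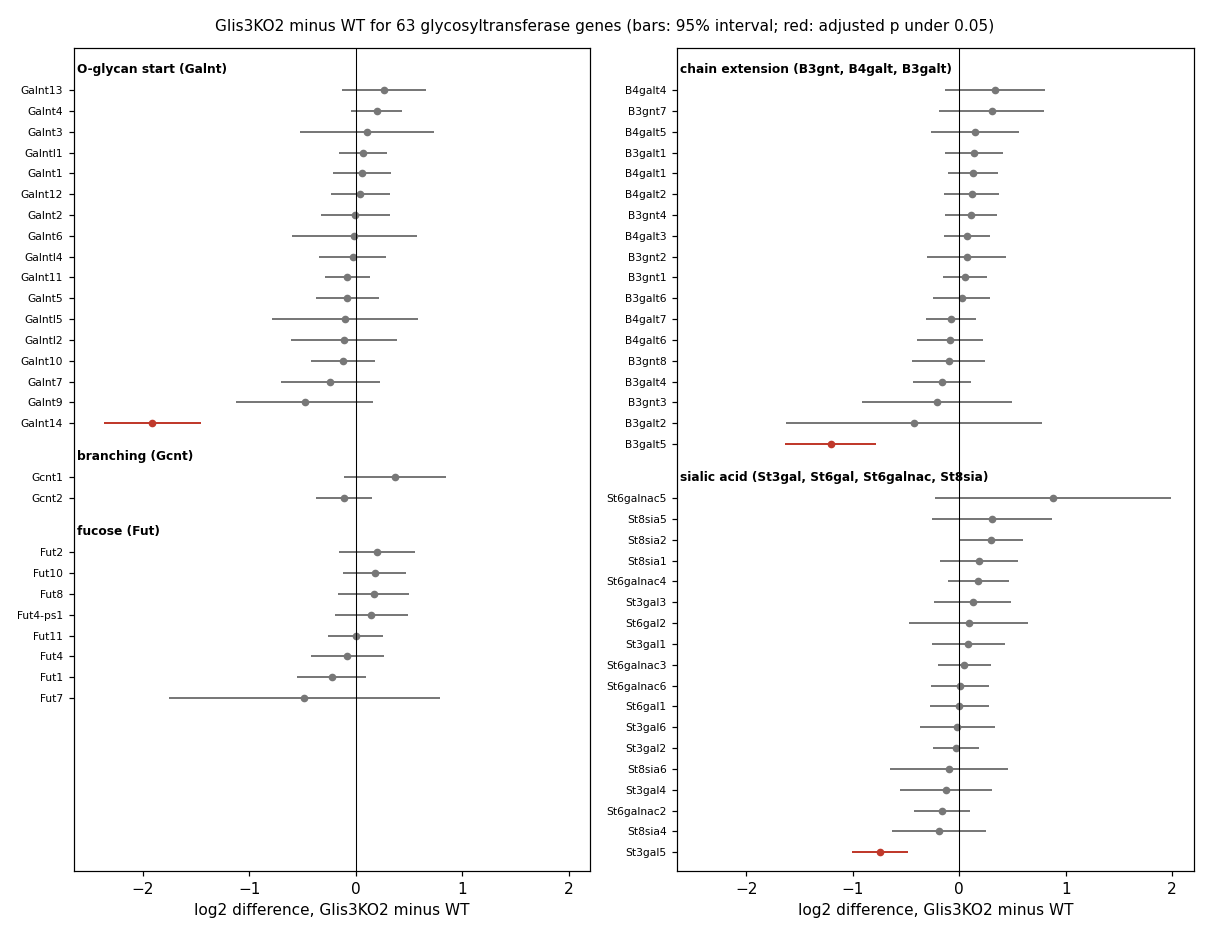
Log2 difference in signal, Glis3KO2 minus WT (horizontal axis), with its 95% interval from limma, for each of the 63 genes, grouped by step of glycan synthesis. Galnt14, B3galt5 and St3gal5 (red) are past an adjusted p of 0.05, and 57 of the 63 intervals lie within 2-fold either way.

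Of the 17 genes with a Galnt name, the family of O-glycan starters, 1 fell (Galnt14), 0 rose and 16 did not pass. Over all gene names, 0.211% passed as lower and 0.0881% as higher. Log2 differences of the 16 lay between -0.48 and 0.27. The 17 were taken by name, Galntl5 among them, and enzyme activity was not looked up. Galnt2, a GALNT of most tissues, averaged 4.25 ± 0.27 in Glis3KO2 and 4.25 ± 0.07 in WT, with a 95% interval of the log2 difference from -0.32 to 0.31. Galnt1, another widely used starter, averaged -0.69 ± 0.12 in Glis3KO2 and -0.75 ± 0.16 in WT (interval -0.20 to 0.32). For both genes the interval excludes a 1.5-fold difference in either direction. Galnt3, which glycosylates the phosphate hormone FGF23, had log2 signals of 0.73, 0.67, 1.54 and 1.87 on Glis3KO2 arrays, against 0.92, 1.37, 1.20 and 0.89 on WT arrays. Its Glis3KO2 arrays fell on both sides of the WT range, low on replicates 1 and 2 and high on replicates 3 and 4, with a log2 difference of 0.11 (SE 0.27, limma adjusted p = 0.946). Galnt4, a follow-up enzyme that acts on peptides already carrying a sugar, had 0.57, 0.61, 0.86 and 0.79 on Glis3KO2 arrays, against 0.48, 0.59, 0.50 and 0.47 on WT arrays. Glis3KO2 replicate 1 alone lay within the WT range, and the log2 difference of 0.20 (SE 0.10, limma adjusted p = 0.624) did not pass. Galnt13, best known from neurons, had -2.08, -2.59, -2.42 and -1.95 on Glis3KO2 arrays, against -2.53, -2.46, -2.82 and -2.30 on WT arrays (log2 difference 0.27, SE 0.17, limma adjusted p = 0.701). Galnt9, also best known from brain, was dim and not above background on Glis3KO2 replicate 2, with -4.20, -5.59, -5.12 and -4.86 on Glis3KO2 arrays, against -4.60, -4.66, -4.59 and -4.00 on WT arrays (log2 difference -0.48, SE 0.28, limma adjusted p = 0.676). Glis3KO2 and WT overlapped for both genes.

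The array names of 4 genes are no longer in use. RefSeq now calls Galntl1, Galntl2 and Galntl4 Galnt16, Galnt15 and Galnt18, and B3gnt1 is now B4gat1, which primes the glucuronic acid and xylose repeat that LARGE builds on dystroglycan. These 4 had log2 differences between -0.11 and 0.07, none past the threshold.

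Branching was read from Gcnt1 and Gcnt2, and neither passed, also not at an unadjusted p under 0.05. Gcnt1, which makes the core 2 branch, had log2 signals of 1.72, 1.05, 1.77 and 2.02 on Glis3KO2 arrays, against 1.20, 1.42, 1.45 and 1.00 on WT arrays. Glis3KO2 arrays 1, 3 and 4 were above all WT arrays and replicate 2 was near the lowest of them, with a log2 difference of 0.37 (SE 0.21, 95% interval -0.10 to 0.84, limma adjusted p = 0.659). Gcnt2, the I-branching enzyme, averaged -1.09 ± 0.17 in Glis3KO2 and -0.98 ± 0.07 in WT (limma adjusted p = 0.824). Gcnt3, the core 2 and core 4 enzyme of mucous cells, was well above background on 0 of the 8 arrays, and Gcnt4 was not analysed here.

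Of the 18 kept genes for chain extension, 1 fell (B3galt5), 0 rose and 17 did not pass, where 0.211% of all gene names passed as lower. Log2 differences of the 17 lay between -0.43 and 0.33. B4galt1, the main galactosyltransferase for N-acetyllactosamine, had log2 signals of 2.74, 2.63, 2.80 and 2.75 on Glis3KO2 arrays, against 2.53, 2.48, 2.64 and 2.75 on WT arrays. The arrays overlapped within a narrow range, with a log2 difference of 0.13 (SE 0.10, limma adjusted p = 0.753). B4galt4, which galactosylates sulfated chains, had 1.49, 1.39, 1.20 and 2.05 on Glis3KO2 arrays, against 1.23, 1.56, 1.07 and 0.93 on WT arrays (log2 difference 0.33, SE 0.20, limma adjusted p = 0.690). Glis3KO2 replicate 4 was the highest of the 8 arrays, and the rest overlapped. B3gnt2, the main enzyme of polylactosamine chains, averaged 0.25 ± 0.28 in Glis3KO2 and 0.18 ± 0.18 in WT (limma adjusted p = 0.940). B3gnt7, known for keratan sulfate chains, was dim, with -4.82, -4.90, -5.40 and -5.13 on Glis3KO2 arrays, against -5.59, -5.02, -5.82 and -5.03 on WT arrays. Its log2 difference was 0.30 (SE 0.21, limma adjusted p = 0.729), and the groups overlapped. Of the B3galt genes other than B3galt5, the 4 log2 differences lay between -0.43 and 0.14, with no adjusted p under 0.735. B4galt7 and B3galt6, which build the linker of proteoglycans, had log2 differences of -0.08 and 0.02. B4galt5 and B4galt6 make lactosylceramide, the lipid that St3gal5 uses, and had log2 differences of 0.15 (SE 0.18) and -0.09 (SE 0.13). The B4galt5 probe was dim, at -4.62 ± 0.37 in Glis3KO2 and -4.77 ± 0.13 in WT.

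None of the 8 kept Fut genes passed in limma, and 0 had an unadjusted p under 0.05, where 5.74% of all gene names were lower and 3.39% higher. The 8 include Fut4-ps1, by its name a pseudogene of Fut4. Log2 differences of the 8 lay between -0.48 and 0.20. Fut1 and Fut2 make the H antigen. Fut1 had log2 signals of -4.76, -4.49, -4.80 and -4.65 on Glis3KO2 arrays, against -4.24, -4.27, -4.54 and -4.73 on WT arrays, a log2 difference of -0.23 (SE 0.14, limma adjusted p = 0.689). Fut2 averaged -3.96 ± 0.11 in Glis3KO2 and -4.16 ± 0.30 in WT, a log2 difference of 0.20 (SE 0.15, limma adjusted p = 0.752). Both genes overlapped between genotypes. Fut8, which adds core fucose to N-glycans, averaged -0.80 ± 0.27 in Glis3KO2 and -0.96 ± 0.08 in WT, and Fut10 averaged -0.31 ± 0.19 in Glis3KO2 and -0.48 ± 0.13 in WT, with limma adjusted p of 0.781 and 0.732. Fut7, which makes selectin ligands on leukocytes, had the widest interval of the family, with -3.15, -3.55, -3.47 and -2.78 on Glis3KO2 arrays, against -0.94, -3.52, -3.87 and -2.69 on WT arrays. WT replicate 1 stood above the other 7 arrays, and the log2 difference of -0.48 (SE 0.56, limma adjusted p = 0.855) was smaller than its error. Without WT replicate 1 the sign turned, to a log2 difference of 0.12. Summed signals of the 8 leukocyte markers were 39.4 to 57.6 in Glis3KO2 and 33.7 to 66.9 in WT. Ptprc, a marker of all leukocytes chosen after its values were seen, had log2 signals of -0.70, -0.77, -0.66 and -0.27 on Glis3KO2 arrays, against 1.23, -1.13, -0.98 and -0.29 on WT arrays. It was thus highest on the same array as Fut7, and its part in the Fut7 signal was not tested.

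Sialic acid is added by the products of 18 kept genes, of which 1 fell (St3gal5), 0 rose and 17 did not pass. The share of all gene names that passed as lower was 0.211%. Log2 differences of the 17 lay between -0.19 and 0.88. The other 5 St3gal genes had log2 differences between -0.12 and 0.13. St3gal1, which caps core 1 O-glycans, averaged 0.25 ± 0.22 in Glis3KO2 and 0.16 ± 0.20 in WT, and St3gal4, which caps lactosamine ends, averaged -0.13 ± 0.37 in Glis3KO2 and -0.01 ± 0.16 in WT. St6gal1, the alpha-2,6 sialyltransferase of N-glycans, averaged 0.49 ± 0.13 in Glis3KO2 and 0.49 ± 0.16 in WT, and the 95% interval of its log2 difference ran from -0.27 to 0.27. None of these 3 means differed by more than the spread of the replicates.

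The St8sia genes add sialic acid to sialic acid. St8sia2, a polysialyltransferase of NCAM1, had log2 signals of -3.06, -3.32, -3.55 and -3.14 on Glis3KO2 arrays, against -3.46, -3.46, -3.68 and -3.65 on WT arrays. Of the 4 Glis3KO2 arrays, 3 lay above all WT arrays and replicate 3 within them, and the log2 difference of 0.30 (SE 0.13, 95% interval 0.0044 to 0.59) had the smallest adjusted p of the 60 genes that did not pass (limma adjusted p = 0.551). St8sia4, the other polysialyltransferase, averaged 0.45 ± 0.17 in Glis3KO2 and 0.65 ± 0.39 in WT (log2 difference -0.19, SE 0.19, limma adjusted p = 0.820). St8sia1, the GD3 synthase, averaged -0.26 ± 0.22 in Glis3KO2 and -0.45 ± 0.25 in WT (log2 difference 0.19, SE 0.16, limma adjusted p = 0.778). St8sia5, which extends complex gangliosides, had 0.61, -0.36, -0.69 and 0.01 on Glis3KO2 arrays, against -0.35, -0.49, -0.47 and -0.35 on WT arrays. Its Glis3KO2 arrays spread to both sides of a narrow WT range, and the log2 difference was 0.31 (SE 0.24, limma adjusted p = 0.763).

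St6galnac5, a brain enzyme of alpha-series gangliosides, had 2 probes that pointed in opposite directions. The brighter probe (A_51_P421724) had log2 signals of 0.25, -1.75, -2.45 and -0.89 on Glis3KO2 arrays, against -2.05, -2.07, -1.98 and -2.25 on WT arrays. Its SD was 1.16 in Glis3KO2 and 0.11 in WT, and its log2 difference of 0.88 (SE 0.48, limma adjusted p = 0.650) was the highest of the 63 genes without passing. The dimmer probe (A_52_P309166) had -4.17, -3.74, -4.68 and -4.78 on Glis3KO2 arrays, against -4.29, -4.10, -3.36 and -3.56 on WT arrays, a log2 difference of -0.51 (SE 0.28, limma adjusted p = 0.644). The 2 probes lie at 152731690 to 152731749 and 152731670 to 152731729 of chromosome 3, minus strand (mm7), and share 40 of their 60 bases. On the brighter probe Glis3KO2 replicates 1, 2 and 4 were above all WT arrays and replicate 3 below them, and on the dimmer probe replicates 3 and 4 were below all WT arrays. Of the other St6galnac genes, St6galnac4 and St6galnac2 act on core 1 O-glycans. St6galnac4 averaged -0.78 ± 0.19 in Glis3KO2 and -0.96 ± 0.11 in WT, and St6galnac2 averaged 2.99 ± 0.11 in Glis3KO2 and 3.15 ± 0.15 in WT, with limma adjusted p of 0.719 and 0.730. St6galnac1, the enzyme of the sialyl-Tn antigen, was well above background on Glis3KO2 replicate 1 and on no other array, at -5.15, -5.78, -6.70 and -7.03 on Glis3KO2 arrays, against -7.98, -7.99, -7.88 and -7.31 on WT arrays, so no fold is given.

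**Figure D3:**
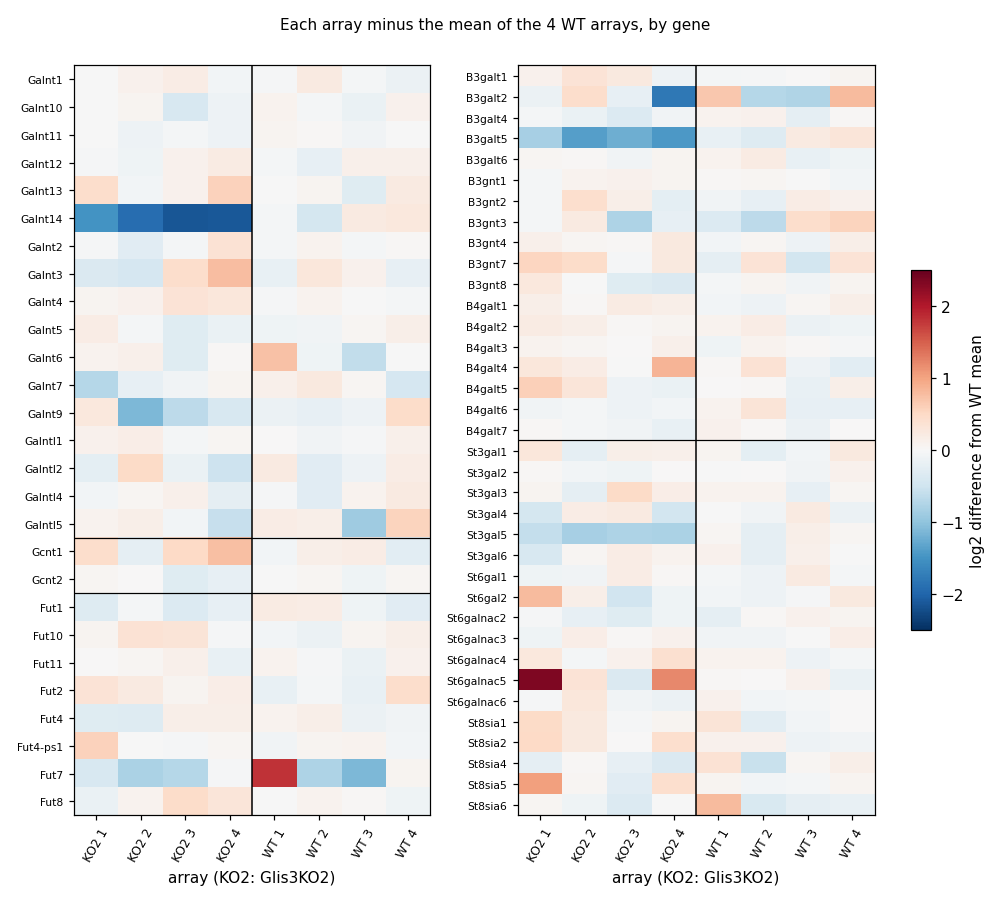
Log2 signal of each array minus the mean of the 4 WT arrays (colour) for the 63 genes (rows), with Glis3KO2 arrays left of WT arrays and lines between steps of glycan synthesis. Galnt14, B3galt5 and St3gal5 are below the WT mean on all 4 Glis3KO2 arrays, while St6galnac5 is high on Glis3KO2 replicates 1 and 4 and Fut7 on WT replicate 1.

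Besides Gcnt3 and St6galnac1, B3gnt5 and Fut9 were not kept, which leaves 4 of the 67 genes without a test. No kept gene's chosen probe was well above background on exactly 4 arrays. The nearest kept probe was a further Galnt13 probe, above background on 5 arrays, at -5.43 ± 0.58 in Glis3KO2 and -5.50 ± 0.48 in WT. Just outside, on 3 arrays each, were probes of Galnt13 (-6.07 ± 0.43 in Glis3KO2, -5.40 ± 0.26 in WT), Galntl4 (-5.84 ± 0.28 in Glis3KO2, -5.57 ± 0.26 in WT) and St8sia1 (-6.66 ± 0.36 in Glis3KO2, -5.93 ± 0.44 in WT). All 3 of these genes were kept through a brighter probe. Among the 31 genes with several kept probes, the probes had the same sign in 20 and differed in sign in 11, and in 0 genes did probes pass an unadjusted p of 0.05 in opposite directions. The other 32 genes rest on 1 probe each, B3galt5 and St3gal5 among them.

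No gene of the related steps of the pathway passed the threshold in limma. Counts at an unadjusted p under 0.05 in these lists stand against 3.39% higher and 5.74% lower over all gene names. Of 24 other O-glycan transferases and the core 1 chaperone, 0 passed in either direction and 1 (higher) had an unadjusted p under 0.05, with 15 log2 differences above 0 and a median of 0.06. C1galt1, the core 1 synthase, averaged 0.36 ± 0.14 in Glis3KO2 and 0.32 ± 0.08 in WT, and its chaperone C1galt1c1 averaged 1.82 ± 0.25 in Glis3KO2 and 1.88 ± 0.16 in WT. The smallest p-values of this list belonged to Large, the dystroglycan enzyme, and Mfng, which extends O-fucose on Notch. Large averaged 1.52 ± 0.10 in Glis3KO2 and 1.24 ± 0.11 in WT without overlap (log2 difference 0.28, limma adjusted p = 0.457), and Mfng had a log2 difference of -0.40 (limma adjusted p = 0.561).

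Among 23 genes for the supply of sugar nucleotides, 0 passed and 1 (higher) had an unadjusted p under 0.05, where 3.39% of all gene names were higher, with a median log2 difference of 0.02. Gne, which starts sialic acid synthesis, averaged 0.44 ± 0.08 in Glis3KO2 and 0.47 ± 0.19 in WT. Cmas, which activates sialic acid, averaged 0.39 ± 0.10 in Glis3KO2 and 0.37 ± 0.14 in WT. Gmds, the first enzyme of GDP-fucose synthesis, had a log2 difference of 0.36 (SE 0.14, limma adjusted p = 0.505), and Slc35a3, a Golgi transporter of UDP-N-acetylglucosamine, -0.28 (SE 0.15, limma adjusted p = 0.624). Of 12 genes that remove sialic acid, fucose or other sugars, 0 passed and 1 (higher) had an unadjusted p under 0.05, with a median of 0.05. Siae, a sialic acid esterase, averaged 0.80 ± 0.14 in Glis3KO2 and 0.51 ± 0.09 in WT without overlap (log2 difference 0.29, limma adjusted p = 0.457), and Fuca2, a fucosidase, had a log2 difference of 0.22 (limma adjusted p = 0.680).

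Of 16 mucins and polysialic acid carriers, 14 had a probe and 11 were tested, and 0 passed, with a median log2 difference of -0.03. At an unadjusted p under 0.05, Muc16 was higher and Muc3 lower, where 3.39% of all gene names were higher and 5.74% lower. Muc3, an intestinal membrane mucin, was above background on 1 Glis3KO2 array and 4 WT arrays, with -7.49, -5.91, -6.46 and -5.34 on Glis3KO2 arrays, against -5.11, -4.57, -5.02 and -4.92 on WT arrays. It entered the test through its WT arrays, so its fitted difference is not given. Muc16, a membrane mucin of epithelia, averaged 0.50 ± 0.23 in Glis3KO2 and 0.15 ± 0.17 in WT (limma adjusted p = 0.517). Ncam1, the main carrier of polysialic acid, had a log2 difference of -0.15 (SE 0.17, limma adjusted p = 0.848), a value chosen after the list was seen, and 0.028 without Glis3KO2 replicates 3 and 4 together. Of 12 tested sulfotransferases 0 passed and 1 (lower) had an unadjusted p under 0.05, with a median of 0.02. Chst1, the keratan sulfate galactose sulfotransferase, averaged 0.75 ± 0.16 in Glis3KO2 and 1.06 ± 0.19 in WT (limma adjusted p = 0.529), and Chst4, which sulfates selectin ligands, had a log2 difference of 0.26 (limma adjusted p = 0.633).

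**Figure D4:**
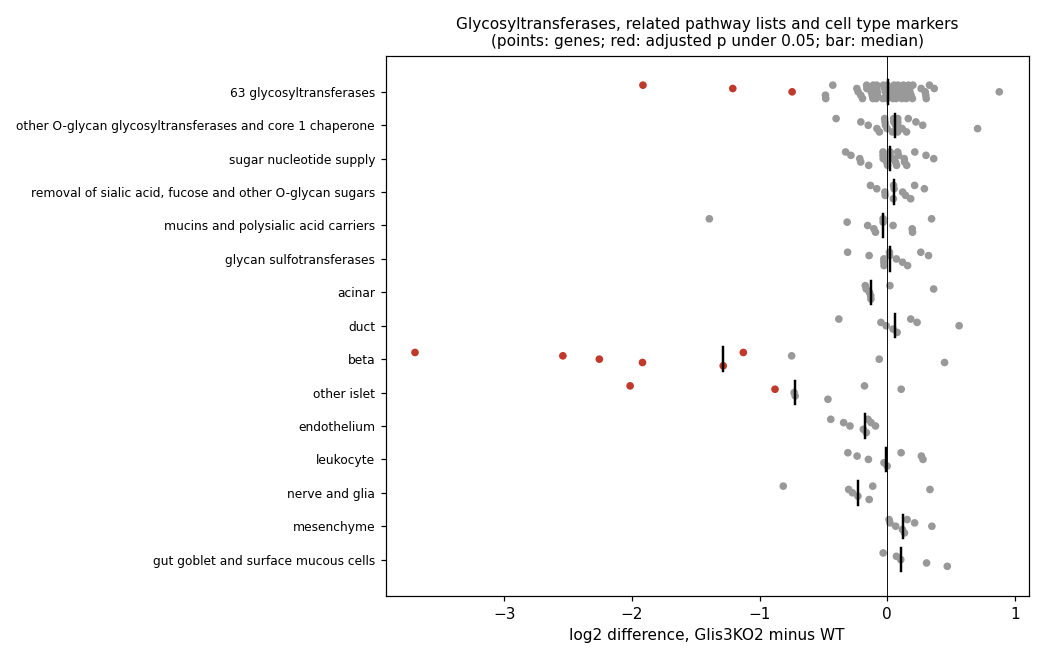
Log2 difference, Glis3KO2 minus WT (horizontal axis), of each tested gene (points, red past an adjusted p of 0.05) and the median (bar) for the 63 glycosyltransferases, 5 related pathway lists and 9 lists of cell type markers. Red points stand among the glycosyltransferases (3), beta cell markers (6) and other islet markers (2).

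**Figure D5:**
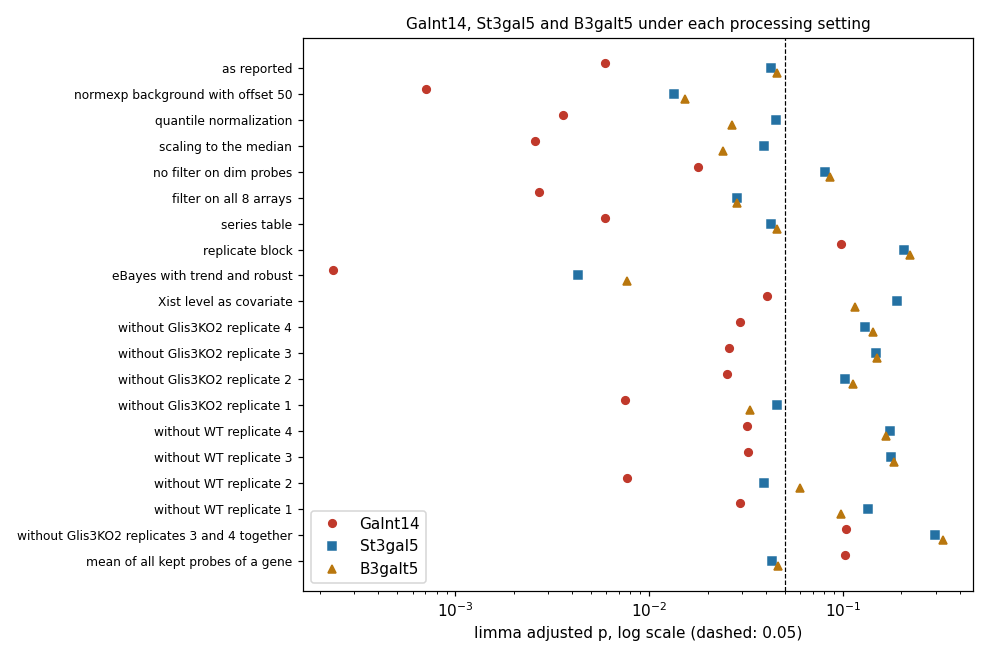
Limma adjusted p (horizontal log axis, dashed line at 0.05) of Galnt14, St3gal5 and B3galt5 as reported and under 19 other processing settings (rows). Galnt14 lies past the threshold under 16 of the 19 settings, St3gal5 under 9 and B3galt5 under 8. The series table setting repeats the reported fit, because its values are the same, and is counted among the 19.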

How the data were processed

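Whole pancreas of 4 Glis3KO2 and 4 WT pups was measured on 8 single-colour arrays. The deposited values are spot intensity values that the authors read with Agilent Feature Extraction (9.5.3.1 per the file headers, 9.5 per the submitters' processing notes). Per the file headers, probe positions refer to build mm7, and exons or UTRs were not looked up. Groups and replicate numbers came from the sample titles. The processed signal was put on a log2 scale, and the 75th percentile of all non-control spots of the array was subtracted. Flagged spots (56 to 130 per array) were left out, and 0 spots were saturated. Probes passing the background filter, 33239 in all, were compared with limma 3.58.1 (R 4.3.3, lmFit and eBayes, 2-sided, Benjamini-Hochberg). The fit was tried on simulated arrays with independent noise. These had no slide, sex or litter effects, so they do not check the error rate in the real data. With 4 arrays per genotype, precision is limited. RefSeq tables gave current names (67 of 67) and promoter windows (49 of 63 genes). Members, lists and rules were chosen with earlier results of these data known. Named are all genes past the threshold, the 12 others with the smallest p, a fixed set of well-known enzymes, probes next to the filter limit and the 2 smallest p of each related list. B4galt5, B4galt6, B4galt7, B3galt6, Fut7, St8sia5, the renamed genes, Ncam1, Ptprc and the beta and islet markers were added after their values were seen. Alternatives changed background, scaling, filter, variance model, covariates, arrays or probes.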

Additional observations from a re-analysis of the deposited data

Results flagged for a closer look

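The 58 genes with values in the text, 38 of the 63 glycosyltransferases and 20 genes of the related lists and markers, were checked in each genotype for an array far from the other 3. Galnt9 on WT replicate 4, at a log2 signal of -4.00, stood apart from the other WT arrays, which lay between -4.66 and -4.59. It was the 1 such case in 116 groups of 4 arrays, and chance gives about 1 in 20 groups. Without WT replicate 4, Galnt9 again did not pass the test.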

How the results depend on the processing

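Of the 60 genes that did not pass, 0 passed under any of the 19 alternatives (lowest limma adjusted p 0.252), and the median log2 difference of the 63 genes ranged from -0.015 to 0.046. Among the 19, the deposited series values equal the values used here, so that setting repeats the reported fit. The count of glycosyltransferases that fell, 3 as reported, was 1 with no filter on dim probes, 1 with Xist as covariate, 0 with the replicate block, 0 without Glis3KO2 replicates 3 and 4 together, and between 1 and 3 when single arrays were left out. Galnt14, St3gal5 and B3galt5 were lower in Glis3KO2 under every alternative run, with log2 differences of -2.06 to -1.15, -0.82 to -0.69 and -1.36 to -0.87. Their adjusted p ranged from 2.35e-04 to 0.104, 0.00430 to 0.298 and 0.00767 to 0.328. The cause of the lost calls was not tested. Leaving arrays out changed both how many and which arrays were compared. Whether replicate numbers pair the samples is not known. Same-numbered arrays deviated with correlations of 0.129, 0.0900, 0.237 and -0.0365, and 2 of 4 Glis3KO2 arrays correlated best with their own number. With only 4 numbers these values do not settle it. With the replicate block Galnt14 had a limma adjusted p of 0.0973, St3gal5 0.205 and B3galt5 0.222. Over all tested probes, 27 higher and 58 lower as reported, the counts were 7 and 8 with the replicate block, 44 and 98 with trend and robust settings, 12 and 15 with Xist as covariate, 5 and 6 without Glis3KO2 replicates 3 and 4 together, 32 lower with no filter on dim probes, and 15 to 25 higher and 20 to 73 lower without single arrays. Among genes that did not pass, some signs turned: with normexp for B3gnt7 (-0.044), Fut2 (-0.086), B4galt5 (-0.10) and Galnt2 (0.030), with median scaling for Galnt2 (0.023) and St6gal1 (0.027), with Xist as covariate for St3gal4 (0.027), St3gal1 (-0.095) and Galntl2 (0.022), with probes averaged for Fut8 (-0.054), and without Glis3KO2 replicates 3 and 4 together for Fut8 (-0.044), Gcnt2 (0.032), Galntl2 (0.12), Ncam1 (0.028), C1galt1 (-0.074), Cmas (-0.0094) and, well away from 0, Galnt3 (-0.40, 0.11 as reported). Without single arrays Galnt2 ranged from -0.12 to 0.089, Galnt3 from -0.12 to 0.29, St6gal1 from -0.061 to 0.077, B3gnt2 from -0.049 to 0.17, C1galt1 from -0.016 to 0.083, C1galt1c1 from -0.16 to 0.025, Gne from -0.10 to 0.038, Cmas from -0.026 to 0.074, Fut7 from -0.85 to 0.12, B4galt6 from -0.16 to 0.025, Galntl2 from -0.31 to 0.024, Galntl4 from -0.12 to 0.049, B3galt6 from -0.041 to 0.091 and Ptprc from -0.59 to 0.20. A slide block was not run, because each slide held 1 genotype. Signals near background limit what can be said of Galnt9, B3gnt7, B4galt5, Fut1, Muc3 and the dimmer probes of Galnt14 and St6galnac5.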
